A study of Mus musculus with 3 samples.

Results

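Fibronectin (Fn1) and 9 other glycoproteins of the extracellular matrix were measured in EpH4-PR mouse mammary epithelial cells: tenascin C (Tnc), Sparc, osteopontin (Spp1), thrombospondins 1 and 2 (Thbs1, Thbs2), periostin (Postn), vitronectin (Vtn) and nidogens 1 and 2 (Nid1, Nid2). They were chosen by name. Each non-control probe that carries one of the 10 symbols in the array files was kept, which gave 18 of the 41174 probes and 10 of the 29273 gene names on the array. There was a single group of 3 Agilent whole mouse genome arrays, numbered as replicates 1, 2 and 3. EpH4-PR cells derive from EpH4, a mammary epithelial line, by stable transfection with the A isoform of the progesterone receptor (PR-A) and selection of clones, and the labels describe growth in DMEM with 10% FBS to roughly 75% confluence. Every array carried EpH4-PR RNA in the Cy5 dye and a commercial mouse reference RNA, named Stratagene mouse standard in the labels, in Cy3. Dyes were not swapped, so a dye effect and a difference between the RNAs cannot be told apart. Arrays of the EpH4-EV vector control were not analysed here, and each ratio below is a level in EpH4-PR cells relative to the reference RNA, not an effect of PR. Nothing states that the 3 RNAs came from separate cultures, so p-values measure the spread between these arrays only, which may be technical.

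The extracellular matrix is the protein network on which epithelial cells sit and through which they receive adhesion signals. Fibronectin and vitronectin are adhesive proteins bound by integrins. Tenascin C, Sparc, osteopontin, the thrombospondins and periostin are matricellular proteins, which are secreted into the matrix and modulate adhesion and growth factor signalling more than they build structure. Nidogens link the laminin and collagen IV networks of the basement membrane, the sheet that separates mammary epithelium from stroma. In the mammary gland much of this matrix is made by stromal fibroblasts, and epithelial and myoepithelial cells contribute to the basement membrane.

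Most of these matrix glycoproteins were lower in EpH4-PR cells than in the reference RNA, and thrombospondin 1 alone was higher. The log2 ratio of each probe (EpH4-PR cells over reference) was tested against 0 with limma, and a call needed a ratio of 1 or more in size and a Benjamini-Hochberg adjusted p, over all probes, under 0.05. By this rule 9 of the 18 probes, from 8 genes, were lower, where 3.83% of all probes on the array were called lower. Only 2 probes (11.1%), both of Thbs1, were higher, where 2.26% of all probes were called higher. The remaining 7 probes were not called. The median log2 ratio of the 18 probes was -0.85, and that of all probes was -0.01. Without the limit on the ratio, 10 member probes were lower and 4 higher, against 24.6% and 25.7% of all probes. Direction depended on the normalization for fibronectin. With each array centred on its median in place of the intensity-dependent loess curve, 4 probes were called lower and 3 higher. Over all probes this centring called 708 lower and 7031 higher, so higher calls rose across the array. It also moved the ratio of the called fibronectin probe above 0, as given below. In bulk RNA, fewer cells with a transcript and less of it per cell cannot be told apart.

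**Figure D1:**
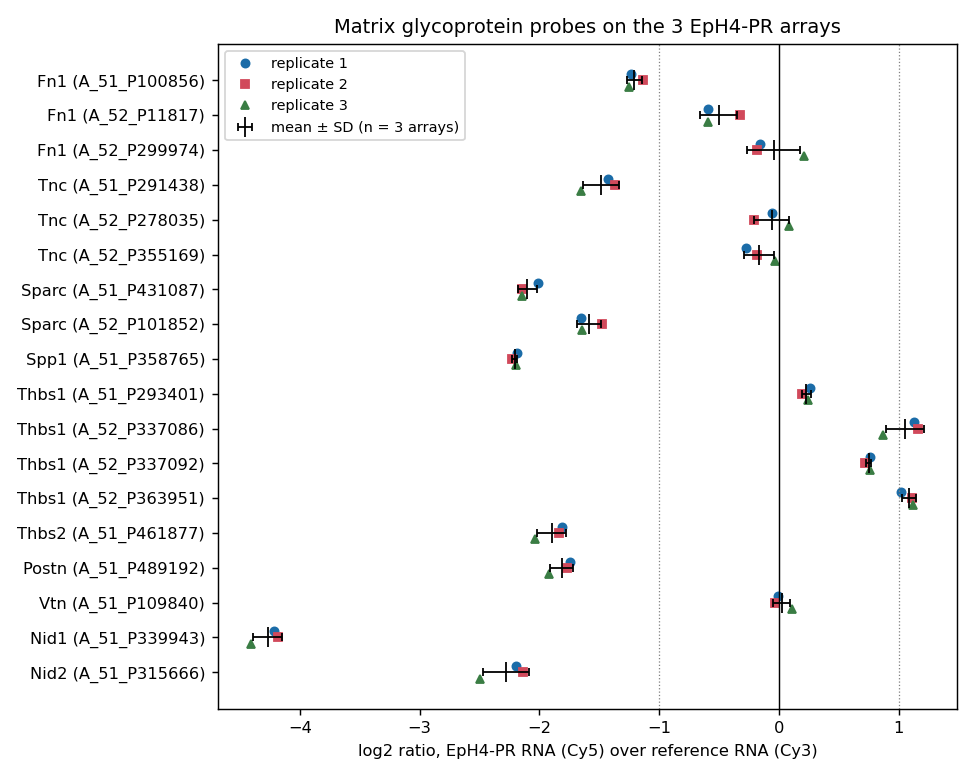
Log2 ratio (EpH4-PR RNA in Cy5 divided by reference RNA in Cy3) of the 18 probes, with 1 point per array and the mean ± SD (n = 3 arrays) in black; dotted lines stand at -1 and 1. The Nid1 points lie lowest, from -4.40 to -4.19, and the points of all 4 Thbs1 probes lie above 0.

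The arrays ranked the member probes alike, with Pearson correlations over the 18 probes of 0.997, 0.994 and 0.991 between pairs of arrays, given as a description since probes share genes and arrays. The SD over arrays had a median of 0.109 and a maximum of 0.218 on the log2 scale. Of the 18 probes, 15 had the same sign on all arrays, 11 below 0 and 4 above. By the scanner software's flag 15 probes (83.3%) stood well above background in Cy5 on all 3 arrays, compared with 68.9% of all probes. No member spot was saturated or marked as an outlier. The 314 negative control spots had 95th percentiles of 85.9, 87.4 and 62.9 in Cy5 and 162, 168 and 107 in Cy3, so the reference channel had the higher floor. The targeted gene, Pgr, had 2 probes, each well above background on 1 array only in EpH4-PR RNA (Cy5 intensities between 57.9 and 82.4). Which part of Pgr they match and which Pgr sequence was transfected are not given in the sources used here, so they check nothing about the labels.

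The epithelial label was borne out by luminal epithelial markers: all 9 genes with a probe were well above background in EpH4-PR RNA, and 8 of their 10 probes were called higher than in the reference, with E-cadherin (Cdh1) at a log2 ratio of 4.29 and the tight junction protein Cldn3 at 3.49, while Krt19 was lower at -2.62. Of 18 fibroblast marker probes 9 were called lower and none higher (median -1.10), led by Vim at -6.51 and Col3a1 at -5.10. All 10 fibroblast genes still had a probe well above background in Cy5, and their summed Cy5 intensity ranged from 4324 to 4959 over the arrays. The part of fibroblast RNA, in the cells or in the reference, in the ratios below was not tested. Endothelial and adipocyte markers had no called probe, and Pecam1, Cdh5, Tek, Emcn, Adipoq and Lep had no probe well above background in Cy5 on all 3 arrays. Kdr, Vwf, Fabp4, Plin1 and all 7 blood marker genes did have a probe that passed this flag, which 68.9% of all probes passed. Of 15 blood marker probes 3 were lower, Cd68 at -1.84 and Ptprc at -4.50 and -1.40. The lowest of these had no Cy5 signal well above background on any array. Of 14 basal marker probes 1, of Krt14, was higher (2.08) and 1, of Acta2, was lower with Cy5 well above background on 1 array only, while the brightest Acta2 probe was at 0.60 and not called.

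Fibronectin, the main adhesive glycoprotein of provisional matrix, was represented by 3 probes that differed from each other. The brightest, A_51_P100856, had log2 ratios of -1.23, -1.13 and -1.25 on replicates 1, 2 and 3. All arrays were low by nearly the same amount, and the mean of -1.21 ± 0.063 (SD, n = 3) was 2.31-fold lower than the reference (limma, Benjamini-Hochberg adjusted p = 5.4e-05). Its Cy5 intensities of 1496, 1505 and 1539 were above its Cy3 intensities of 1283, 1238 and 1329, so the negative sign came from the loess curve and not from the raw colours. Probes as bright as this one were mostly much redder still: the 1000 probes nearest to it in brightness had a median log2 ratio of 1.42 after median centring alone, where the Fn1 probe had 0.13. The scanner software's own dye normalization gave -1.30. The second probe, A_52_P11817, gave -0.59, -0.32 and -0.59, a mean of -0.50 ± 0.154 that had an adjusted p of 0.0033 in limma and stayed under the limit of 1, and it too turned positive (0.33) with median centring. It was above the first probe by 0.64, 0.81 and 0.66 on the 3 arrays, a mean difference of 0.70 ± 0.093, although both are assigned to the same transcript. The third, A_52_P299974, had -0.16, -0.18 and 0.21, with Cy3 intensities of 128, 143 and 90.3 that lay under the 95th percentile of negative control spots on every array, so it gives no measured ratio.

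Vitronectin, an adhesive protein of plasma and matrix made mainly by liver, was close to the floor of both channels. Probe A_51_P109840 read 87.2, 89.0 and 70.5 in Cy5 and 125, 127 and 94.7 in Cy3, and the Cy3 values were under the negative control percentile on all arrays. Its log2 ratios were -0.01, -0.03 and 0.11, with no consistent sign (mean 0.02 ± 0.073, limma adjusted p = 0.707). A ratio this close to 0 between channels near their floor says little about Vtn in either RNA.

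Thrombospondin 1, a matricellular protein that inhibits angiogenesis and can activate latent Tgf-beta, was the only member with probes called higher. Its brightest probe, A_52_P363951, had Cy5 intensities of 2318, 2181 and 2489 against 467, 428 and 447 in Cy3. The log2 ratios were 1.02, 1.11 and 1.12, with every array above the limit of 1, and the mean of 1.09 ± 0.057 was 2.12-fold higher than the reference (limma adjusted p = 6.52e-05). The second called probe, A_52_P337086, gave 1.13, 1.16 and 0.87 (mean 1.05 ± 0.160, limma adjusted p = 0.000262). Its Cy3 intensities of 142, 139 and 120 passed the negative control percentile on 1 array only, so its ratio rests on a reference level mostly at the floor. Replicate 3 of this probe was under 1, and the call was lost without replicate 2, at 0.997. Probe A_52_P337092 was higher on every array at 0.76, 0.72 and 0.76 (limma adjusted p = 0.000139) but under the limit. Its Cy3 intensities of 135, 137 and 102 were within the negative control range on all arrays, and its ratio became 1.42 with no offset in the background correction and 1.83 from the scanner software. The fourth, A_51_P293401, assigned to a separate cDNA clone, gave 0.26, 0.19 and 0.24. All 4 Thbs1 probes were above 0 on all arrays and under every scaling tried, and the brightest reached 2.36 with median centring.

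Thrombospondin 2, the close paralog of thrombospondin 1, was lower instead. Probe A_51_P461877 had Cy5 intensities of 141, 152 and 149 and Cy3 intensities of 315, 324 and 330. Its log2 ratios of -1.81, -1.84 and -2.04 lay close together, with a mean of -1.90 ± 0.123 that was 3.73-fold lower than the reference (limma adjusted p = 3.45e-05). Within each array the brightest Thbs1 probe was above the Thbs2 probe by 2.84, 2.95 and 3.16 log2 units (mean 2.98 ± 0.165). The ratios of the paralogs thus differed by many times their spread, but 3 arrays cannot give a two-sided exact sign permutation p below 0.25. The further thrombospondins were not called, with Thbs3 at 0.51 and Thbs4 at 0.26. The gap between Thbs1 and Thbs2 compares their ratios to the reference RNA and not their transcript levels in the cells.

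**Figure D2:**
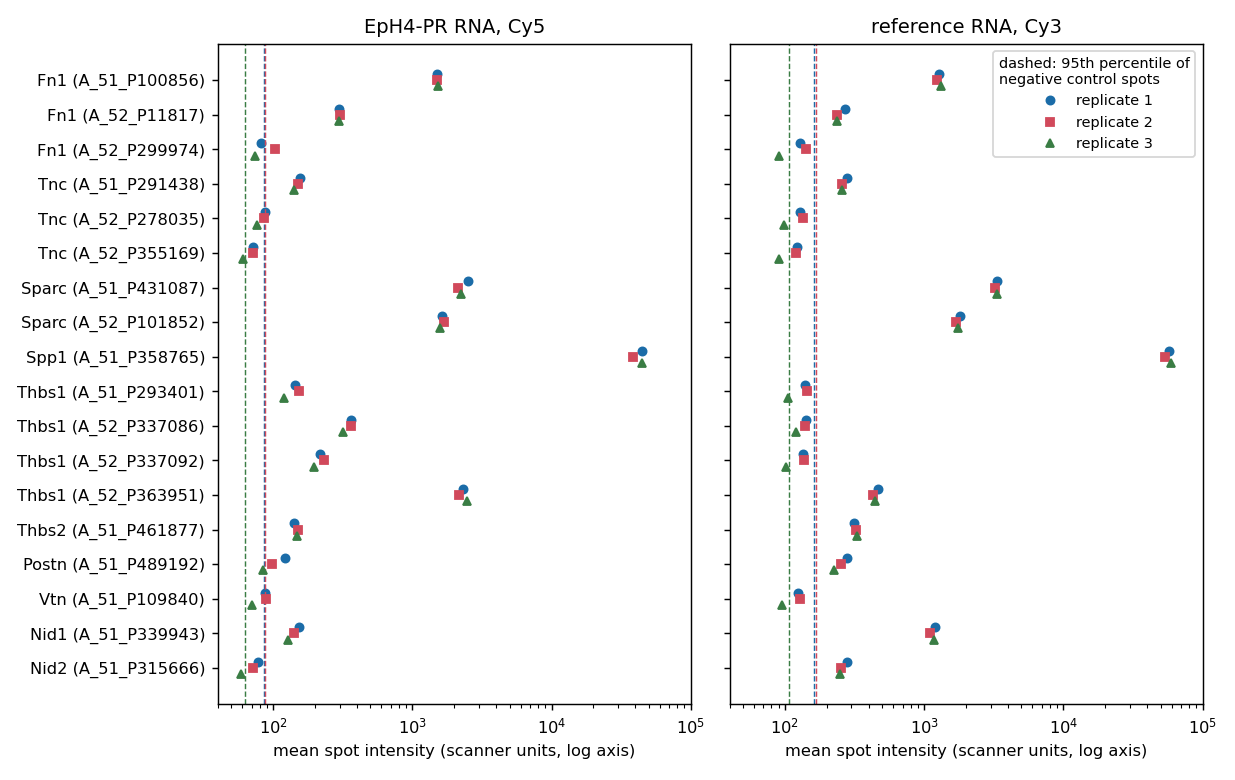
Mean spot intensity in scanner units (log axis) of each probe in EpH4-PR RNA (left, Cy5) and reference RNA (right, Cy3), with 1 point per array and dashed lines at the 95th percentile of negative control spots on each array. Spp1 and Sparc points stand far to the right of the lines in both panels, Nid1 only in the reference panel, and the Vtn points lie under or near the lines in both; intensities of different probes are not comparable as transcript levels.

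Osteopontin, an integrin and Cd44 ligand also found in milk, was the brightest member in both RNAs. Probe A_51_P358765 read 44642, 38751 and 44480 in Cy5 and 57483, 53454 and 59660 in Cy3 without saturating. The log2 ratios were -2.19, -2.23 and -2.20, nearly equal on the 3 arrays, with a mean of -2.21 ± 0.023 that was 4.61-fold lower than the reference (limma adjusted p = 1.53e-05). Spp1 was far above the control spots on every array in EpH4-PR RNA. With median centring the mean was -0.57 and was not called.

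Sparc, a collagen-binding matricellular protein also called osteonectin, was bright in both RNAs and lower by both of its probes. A_51_P431087 read 2508, 2116 and 2235 in Cy5 and 3364, 3231 and 3359 in Cy3, with log2 ratios of -2.01, -2.14 and -2.14. The mean was -2.10 ± 0.077, or 4.28-fold lower (limma adjusted p = 2.08e-05). A_52_P101852 gave -1.65, -1.47 and -1.64, a mean of -1.59 ± 0.100 or 3.01-fold lower (limma adjusted p = 4.04e-05). The second probe was above the first on every array, by 0.36, 0.67 and 0.50. With median centring neither was called, at -0.68 and -0.23.

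Tenascin C, a hexameric matricellular protein of embryonic and remodelling stroma, was lower by 1 of its 3 probes. A_51_P291438 read 157.0, 151 and 141 in Cy5 and 278, 259 and 255 in Cy3, and its log2 ratios were -1.43, -1.37 and -1.66. The mean of -1.48 ± 0.152 was 2.80-fold lower (limma adjusted p = 8.4e-05), while median centring gave -0.85 with no call. The other 2 probes were dim. A_52_P278035, assigned to the cDNA AJ236880, had -0.06, -0.21 and 0.09 (limma adjusted p = 0.491). A_52_P355169 had -0.27, -0.19 and -0.03 (limma adjusted p = 0.0803) and was not well above background in Cy5 on any array.

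Periostin, a matricellular protein of collagen-rich stroma, had a single dim probe in EpH4-PR RNA. A_51_P489192 read 121, 98.6 and 84.5 in Cy5 and 281, 252 and 226 in Cy3, with log2 ratios of -1.75, -1.77 and -1.92. All arrays were low, and the mean of -1.81 ± 0.095 was 3.52-fold lower than the reference (limma adjusted p = 2.97e-05). The call held with median centring, at -1.37.

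Both nidogens were lower than in the reference. Nid1, probe A_51_P339943, read 154, 142 and 127 in Cy5 against 1206, 1104 and 1169 in Cy3. Its log2 ratios of -4.22, -4.19 and -4.40 averaged -4.27 ± 0.118, which was 19.3-fold lower (limma adjusted p = 1.24e-05), and only 0.0534% of all probes had a ratio as low or lower. Nid1 was nonetheless well above background in EpH4-PR RNA on all arrays, and its ratio with median centring was -3.25. Nid2, probe A_51_P315666, read 78.0, 71.3 and 58.8 in Cy5, not well above background on any array, and 278, 255 and 250 in Cy3. No measured size can be given for its ratio, since its Cy5 values lay under the 95th percentile of negative control spots on all arrays. The lowest signal flagged well above background on each array, or the probe's own signal where higher, was put in for the EpH4-PR level. With the main processing this gave 4.82-fold lower than the reference. That stand-in averaged 5.72 on the log2 scale against 5.71 for the probe itself, on per-channel values open to dye bias. It therefore restates the measured ratio and sets no limit on the EpH4-PR level. The log2 ratios were -2.20, -2.14 and -2.50, with a mean of -2.28 (limma adjusted p = 4.41e-05 for the mean against 0). The mean was -2.20 with negative control background and -2.03 with median centring. It was -4.40 with no offset and -5.25 from the scanner software, so the size of the Nid2 ratio depends on the processing.

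Ordered by the ratio of the brightest probe of each gene, Nid1 was lowest, followed by Spp1, Sparc, Thbs2, Postn, Tnc, Fn1 and Thbs1. Nid2, at the floor in EpH4-PR RNA, and Vtn, near the floor of both channels, have no measured place in this order. The steps from Postn to Tnc (0.33 ± 0.070) and from Tnc to Fn1 (0.28 ± 0.112) had the same sign on all 3 arrays. The steps from Spp1 to Sparc (0.11 ± 0.064), from Sparc to Thbs2 (0.20 ± 0.101) and from Thbs2 to Postn (0.08 ± 0.029) also kept their sign on the 3 arrays but not under other processing. With no offset in the background correction, for example, Postn was at -2.87 and Thbs2 at -2.57, both lower than Sparc at -2.13 and Spp1 at -1.99.

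**Figure D3:**
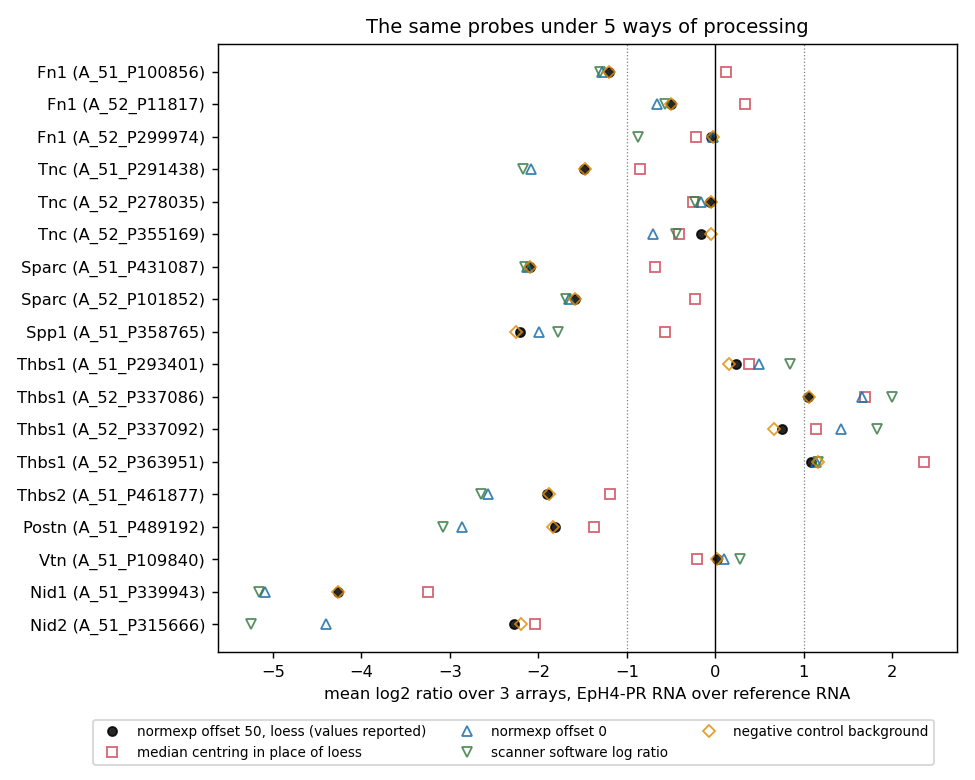
Mean log2 ratio over the 3 arrays of each probe under 5 ways of processing; filled circles are the values reported and dotted lines stand at -1 and 1. Median centring (squares) lies right of the reported values for the bright probes, moving Fn1 across 0 to 0.13, while Nid1, Nid2, Postn and Thbs2 stay under -1 and the Thbs1 probes stay above 0 in all 5.

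The plot of the same probes under 5 ways of processing shows 2 shifts. Bright probes moved up when the loess curve was replaced by median centring, which leaves in place the brightness-dependent excess of Cy5. Dim called probes moved further from 0 with no offset or with the scanner software's ratio. Under the latter Tnc A_51_P291438 went from -1.48 to -2.18, Postn from -1.81 to -3.08 and Nid1 from -4.27 to -5.15. Nid2, at the floor in Cy5, went from -2.28 to -5.25. The median of all probes moved by less than 0.1 in every case. Thbs2, Postn, Nid1 and Nid2 were called lower under every scaling.

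Upstream sequence was read for the members to show what lies before genes whose ratios were low together. The RefSeq promoter table for GRCm38.p6 held 7 of the 10 members; it did not list Fn1, Thbs1 or Nid2. The 250 bases before the annotated start are printed 5′ to 3′ on the gene's strand for the 3 called-lower members with 1 listed start, and for Vtn, which was not called. They are Sparc (chr11:55420081-55420330, minus strand), Nid1 (chr13:13437352-13437601, plus strand), Thbs2 (chr17:14694263-14694512, minus strand) and Vtn (chr11:78498870-78499119, plus strand). Capitals mark matches, on either strand, to a fixed set of short motifs.
Sparc: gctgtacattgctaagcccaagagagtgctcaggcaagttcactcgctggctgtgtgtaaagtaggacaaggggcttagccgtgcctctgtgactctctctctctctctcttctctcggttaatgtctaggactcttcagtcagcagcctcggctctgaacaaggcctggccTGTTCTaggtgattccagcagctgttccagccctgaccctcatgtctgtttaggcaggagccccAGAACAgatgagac
Nid1: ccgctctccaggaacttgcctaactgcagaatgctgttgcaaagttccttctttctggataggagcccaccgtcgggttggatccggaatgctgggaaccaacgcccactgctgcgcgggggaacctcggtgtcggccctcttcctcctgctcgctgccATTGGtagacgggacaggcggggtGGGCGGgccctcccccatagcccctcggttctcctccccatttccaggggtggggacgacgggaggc
Thbs2: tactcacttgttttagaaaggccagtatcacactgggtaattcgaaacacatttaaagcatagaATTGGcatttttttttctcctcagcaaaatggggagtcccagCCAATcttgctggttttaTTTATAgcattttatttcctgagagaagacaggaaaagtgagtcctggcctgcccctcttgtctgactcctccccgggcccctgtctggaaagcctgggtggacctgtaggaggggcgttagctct
Vtn: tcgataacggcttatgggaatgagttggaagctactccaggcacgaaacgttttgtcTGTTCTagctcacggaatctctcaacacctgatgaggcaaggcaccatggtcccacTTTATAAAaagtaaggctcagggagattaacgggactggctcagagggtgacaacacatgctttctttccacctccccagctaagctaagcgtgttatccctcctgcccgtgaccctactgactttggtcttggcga

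Core promoter motifs were searched on both strands as TATAAA for the TATA box, as CCAAT for the box of that name and as GGGCGG for the GC box. Factor motifs were TGTTCT for the half-site of the progesterone response element, TGANTCA for the AP-1 site, TGACGTCA for the cyclic AMP response element and AACCACA for the Runx site. None of these motifs contains another. TGTTCT was found in 2 places before Sparc, the first 78 bases upstream of the start, and once before Vtn, 193 bases upstream, and in 16.1% of all 32851 promoter windows of this length. Sparc was called lower, while Vtn, near the floor of both channels, gives no ratio to set beside it. The motif was in none of the windows of Nid1, Thbs2, Tnc, Postn and Spp1. The Nid1 window held ATTGG, the reverse complement of CCAAT, 91 bases upstream and a GC box 67 bases upstream, motifs held by 33.8% and 32.7% of windows. Before Thbs2 there were 2 CCAAT matches and a TATAAA match in reverse complement, the latter 126 bases upstream, and TATAAA was in 12.4% of windows. TATAAA also lay before Postn, 26 bases upstream of 1 of its 2 starts. Before Tnc, whose windows overlap, the same TATAAA match lay 126 bases upstream of 1 start and 205 bases upstream of the other. A GC box lay 167 and 246 bases upstream of these Tnc starts, again a single match seen from both. Spp1 had it 211 bases upstream of 1 start, with a CCAAT match in reverse complement 46 bases upstream of that start. A Runx site lay 129 bases upstream of the same Spp1 start and in no other member's window, where 4.4% of all windows had one. Vtn, near the floor of both channels, had 2 overlapping matches, the first 137 bases upstream. No AP-1 or cyclic AMP response element match was found in any member's window, where 6.75% and 1.55% of all windows had one. These matches describe letters and show no binding.

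Receptors for these glycoproteins gave 36 probes from 15 genes, of which 1 was called higher and 7 lower (median -0.06). Of all probes 2.26% were called higher and 3.83% lower. Syndecan 4 (Sdc4), a fibronectin co-receptor, was higher at 1.82, though its second probe was at 0.64. Cd47, a thrombospondin 1 receptor, was lower by 4 probes, from -2.12 to -1.10, and 1 of these turned to 0.10 with median centring. Cd44, a hyaluronan and osteopontin receptor, was lower by 1 probe (-1.34, and -0.10 with no call under median centring), and the other 2 were at -0.16 and 0.19. Cd36, another thrombospondin receptor, was lower at -1.75 and -1.65 with Cy5 not well above background on every array. No integrin probe was called, and their ratios ran from -0.82 (Itgav) to 0.34 (Itgb6), with the bright Itgb5 and Itgb3 probes at 0.26 and 0.06. With median centring 6 receptor probes were called higher and 4 lower, and over all probes 7031 were called higher and 708 lower. That turn towards higher calls was array-wide and not particular to the receptors.

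Basement membrane partners of the nidogens gave 17 probes from 10 genes, with 1 called higher and 3 lower (median -0.14). Of all probes 2.26% were called higher and 3.83% lower. With median centring 4 of the partner probes were called higher and 2 lower (median 0.18), where 90.9% of calls over all probes were higher. The collagen IV chain Col4a1 was lower at -1.84 and -1.05, and its second probe lost its call with median centring (-0.74). Col4a2 was lower at -1.47 by 1 probe, while its other probe was at -0.67 and not called. Lama5, the laminin alpha 5 chain of mature epithelial basement membranes, was higher at 2.03 ± 0.039. The laminin gamma 1 chain that nidogen binds, Lamc1, was at -0.68 and not called.

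Related secreted glycoproteins gave 28 probes from 21 genes, with 8 called lower and none higher (median -0.37). Of all probes 3.83% were called lower and 2.26% higher. With median centring 4 of this list were lower and 1 higher, where 90.9% of calls over all probes were higher. Matrilin 2 (Matn2, -4.06) was far lower than in the reference, as was Ecm1 by its brighter probe (-3.98). The other Ecm1 probe, also well above background, was at -0.28 and not called. The Ccn family members Ccn4 (-1.95) and Ccn2 (-1.37), which the files name Wisp1 and Ctgf, were lower too. Ccn3 and Ccn5 were also called lower, Ccn3 with Cy5 not well above background on any array. Ccn4 and Ccn2 lost their calls with median centring, at -0.80 and -0.05. Mfge8, a milk fat globule protein, was lower at -1.02 and turned to 0.46 there. The other tenascins, Tnr, Tnn and Tnxb, had no called probe.

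Enzymes that crosslink matrix or act in plasmin formation gave 22 probes from 13 genes, with 1 called higher and 7 lower (median -0.13). Of all probes 2.26% were called higher and 3.83% lower. With median centring 4 enzyme probes were higher and 3 lower, where 90.9% of calls over all probes were higher. The lysyl oxidases Lox (-3.21), Loxl1 (-1.83) and Loxl2 (-1.48), which crosslink collagen and elastin, were lower. So were plasminogen (Plg) by 1 of its 2 probes (-3.22, the other at -0.17) and tissue plasminogen activator (Plat, -1.75 and -1.12). A further Loxl2 probe at -0.32 and a further Plat probe at -0.08 were not called, with Cy5 not well above background on any array. Loxl2 and Plat lost their calls with median centring while staying below 0. Transglutaminase 2 (Tgm2), which crosslinks fibronectin, was higher at 1.24 by its brightest probe only. Its dimmer probes, still well above background, were at 0.36 and 0.57 and not called. The urokinase gene Plau was at 0.40 and 0.47 and not called.

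**Figure D4:**
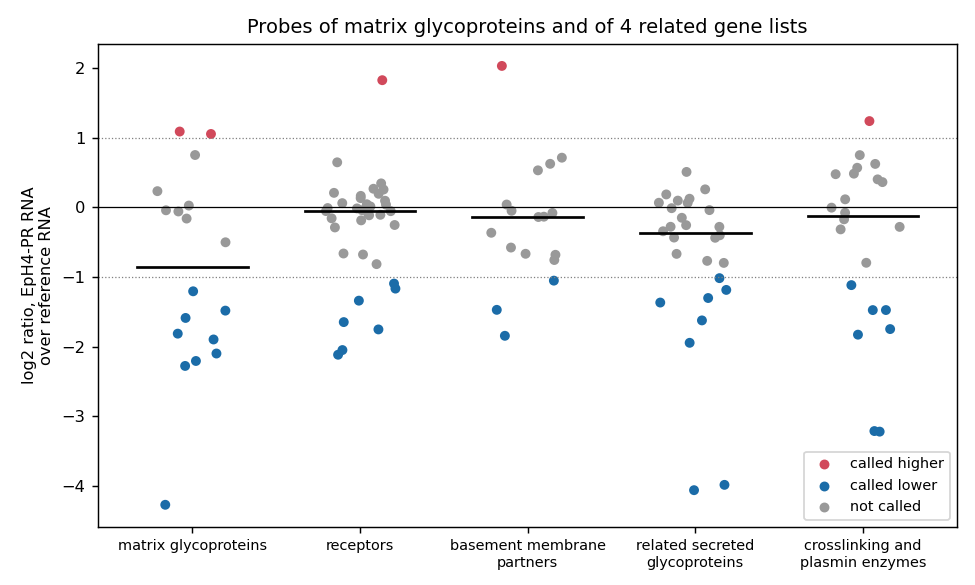
Mean log2 ratio (EpH4-PR RNA divided by reference RNA) for each probe of the 10 matrix glycoproteins and of 4 related gene lists, with black bars at the medians, dotted lines at -1 and 1, and horizontal spread for legibility only. The matrix glycoproteins have a median of -0.85 and the other lists medians between -0.37 and -0.06, an order that does not hold with median centring, where the matrix glycoproteins are at -0.24 and the enzymes at -0.33.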

How the data were processed

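RNA from EpH4-PR cells (Cy5) and reference RNA (Cy3) was hybridised on 3 two-colour arrays. The authors deposited scanner output from Agilent Feature Extraction 8.1.1.1, per the file headers: spot and local background intensity in both channels, flags, and a dye-normalized log10 ratio (Cy5 over Cy3). The authors' deposited table of their own comparison (ratios, fold changes and p-values between unnamed sides) was not used. No depth applies to arrays, and their number limits the precision.

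Local background was removed from the mean intensity of each spot (limma 3.58.1 in R 4.3.3, normexp, offset 50), which pulls the ratios of dim probes towards 0, and normalized by loess within each array. Loess sets the average log2 ratio to 0 at each brightness. Control spots and outlier spots (150, 18 and 3 per array) were left out and spots of a probe averaged. The log2 ratios of 41174 probes were then fitted with lmFit and tested with eBayes for a difference from 0. The script was tested on simulated data. Accessions of 16 of the 18 member probes matched RefSeq (GRCm38.p6) and all 16 kept their symbol; probes were not averaged over genes.

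All members and markers were named, and of other lists up to 4 highest and 4 lowest called probes well above background, with a few further probes added after their values were seen; some list genes are not reported here. Members, lists and tests were chosen with earlier results of these data known. Alternatives covered background correction, normalization within and between arrays, the scanner software's ratio, dim and outlier spots, spot summary, an intensity trend, the fold limit, the methods' t-test and leaving out each array. Negative control spots as background were added after the data were seen.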

Additional observations from a re-analysis of the deposited data

How the results depend on the processing

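Of 251 ratios of member probes under alternatives, 235 kept their direction and side of the threshold, 3 gained a call, 5 lost one and 8 were reversed. Median centring reversed Fn1 A_51_P100856 (0.13), Fn1 A_52_P11817 (0.33) and Vtn (-0.20) and ended the calls of Tnc (-0.85), Sparc (-0.68 and -0.23) and Spp1 (-0.57). Near 0, Fn1 A_52_P299974 was reversed by the median spot intensity (0.015) and ranged from -0.17 to 0.026 when an array was left out (0.012 without replicate 1, 0.026 without replicate 2), Tnc A_52_P278035 ranged from -0.13 to 0.014 (0.014 without replicate 2) and Vtn from -0.018 to 0.051 (-0.018 without replicate 3). Thbs1 A_52_P337092 was called with offset 0 (1.42), the scanner software's ratio (1.83) and median centring (1.13).

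Member probes called higher numbered 2, and 4 by adjusted p alone, with 1 to 2 when an array was left out; without replicate 2, A_52_P337086 fell just under the limit. Those called lower numbered 9, and 4 with median centring. Over all probes 932 were higher and 1578 lower (37.1% of calls higher). Offset 0 gave 3125 and 3905 (44.5%), the scanner software's ratio 3616 and 3887 (48.2%), median centring 7031 and 708 (90.9%) and adjusted p alone 10568 and 10122. The methods' t-test called 929 higher and 1577 lower at a p of at most 0.05, and 897 and 1547 after Benjamini-Hochberg adjustment, with 2 and 9 member probes each time. The negative control background, chosen after seeing the data, gave 1072 and 1571.

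The member median of -0.85 became -0.99 with offset 0, -1.09 with the scanner software's ratio, -0.24 with median centring, -1.21 without dim probes and -1.83 when the probes of a gene were averaged first, and ranged from -0.92 to -0.82 when an array was left out. With median centring the medians of the other lists were -0.14 (receptors), 0.18 (basement membrane partners, reversed), -0.30 (related glycoproteins) and -0.33 (enzymes). The scanner software's ratio gave -0.45, -0.91 and -0.24 for the last 3. With the positive and significant flag, 16 member probes in place of 15 passed in the EpH4-PR channel. No paired analysis was possible because there was 1 group. Signal over background limits Vtn, Nid2, the dimmer Fn1 and Tnc probes, and the reference channel of 3 Thbs1 probes.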
